A study of Arabidopsis thaliana with 6 samples.

Results

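The genes described here encode subunits of the 26S proteasome of Arabidopsis thaliana, and they were taken from a list of 51 loci that covers the 19S regulatory particle and the 20S core. A locus was included when the deposited table held a row for it. This gave 42 of the 51 genes, out of 21430 loci in the whole table, and 9 listed genes (RPT1A, RPT1B, RPT6A, RPT6B, RPN9B, PAA1, PAA2, PBE1 and PBE2) were not analysed here. By place in the complex, the 42 were 7 base ATPases, 4 other base subunits, RPN10, 11 lid subunits, 10 alpha ring subunits and 9 beta ring subunits.

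The 26S proteasome is the protease that degrades proteins tagged with ubiquitin. Its 20S core is a barrel of stacked rings, in which the outer alpha rings control entry and the inner beta rings hold the peptidase sites. The 19S particle caps the barrel, with a base whose ring of ATPases unfolds substrates and a lid that takes off the ubiquitin chain. In Arabidopsis many subunits are encoded by a pair of paralogous genes, and the transcription factors NAC053 and NAC2 (ANAC078) are known to raise proteasome gene expression when proteasome activity is blocked.

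Wild-type Columbia-0 seedlings had grown for 7 days in liquid medium with sucrose when hydrogen peroxide (H2O2), a reactive oxygen species, was added to 10 mM. The mock group received water in the same volume, and both groups were collected 24 h later. Each group had 3 replicates, each RNA from a pool of 4 to 5 plants on its own Affymetrix array, reported as log2 GCRMA values (background-corrected, normalised probe set intensities on the log2 scale). Since nothing in the labels states that the pools are separate cultures, the p-values below reflect spread among these pools alone, and some of that spread may be technical.

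The median of all values lay between 5.66 and 5.74 on the 6 arrays, and precision is limited by having 3 arrays a group. The sampled tissue is labelled both as leaf and as seedling. Of 4 leaf markers, only CA1 was measured, at 9.98 to 10.45 on all arrays, and all 6 root markers were measured. In 5 of the 6 both group means were above the filter on low values (3.79 on the log2 scale). That filter kept 15001 of 21430 probe sets, so passing it says little about the organ. The mock and H2O2 means of these 5 ran from 4.28 and 4.44 (CASP4) to 12.02 and 11.96 (PYK10). Whether the label of leaf alone holds was not tested. MRN1 passed that filter only through its mock group (means 3.95 and 3.65) and is left out of the next count. Of the other 5 root markers 3 were lower in H2O2, where 36.5% of all probe sets were called lower. They were PRP3, XTH14 and CASP1, with log2 changes of -2.08, -1.76 and -0.30. CASP1 came just under the threshold (adjusted p = 0.0488 in limma, the linear model used below). Its H2O2 replicate 1 read 7.97 and its mock replicate 1 read 7.99. PYK10 and CASP4 were not called, at -0.05 and 0.16. The summed linear level of all 6, PYK10 included, lay between 5165 and 5460 in mock and between 4098 and 4717 in H2O2. Whether these marker values bear on the proteasome values was not tested, and in pooled RNA fewer cells of a type and less RNA per cell cannot be told apart.

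Transcripts of proteasome subunits were broadly higher in H2O2. Of the 42 measured genes, 38 (90.5%) were higher than in mock at an adjusted p under 0.05 in limma, a linear model with moderated variance, and none was lower. Over all 15001 probe sets tested, 60.4% were called in either direction, 23.9% higher and 36.5% lower. All 42 members passed the filter on low values. The median log2 change of the 42 genes was 0.61, or 1.53-fold, while that of all probe sets tested was -0.10. Averaged over the 42 genes, the log2 value was 8.94, 8.96 and 8.87 on mock replicates 1, 2 and 3 and 9.60, 9.56 and 9.61 on the H2O2 replicates. The lowest H2O2 array thus lay 0.60 above the highest mock array in this mean.

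The changes were modest in size. Between -0.22 and 1.48 on the log2 scale, 26 of the 42 fell in the range from 0.4 to 0.9, and the standard errors ran from 0.07 to 0.11. Only 5 genes rose at least 2-fold, namely RPT5B, RPT3, RPN8B, RPT2A and RPN6, all in the 19S particle. Over all probe sets, 7.63% were called with a rise of that size. RPN3A, RPN11, PAE1 and RPN2B came just under it, with log2 changes of 0.98 to 0.997. All 3 H2O2 arrays lay above all 3 mock arrays for 39 of the 42 genes, against 26.6% of all probe sets, and below them for none, against 40.7%. The 3 genes with overlapping groups were RPT2B, RPN3B and RPN9A.

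**Figure D1:**
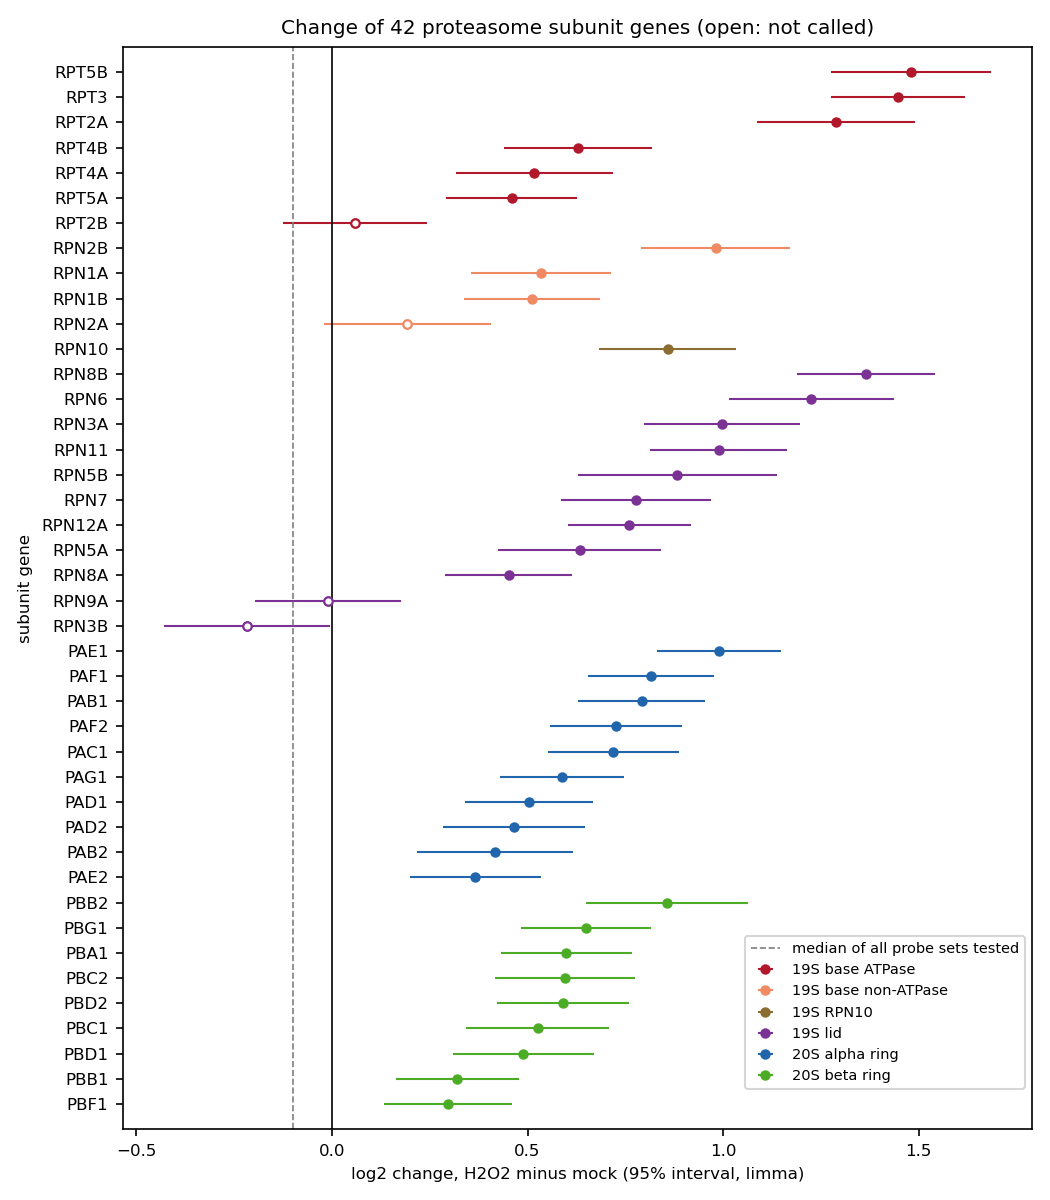
Log2 change (H2O2 minus mock, horizontal axis) of each of the 42 measured subunit genes, grouped by place in the complex, with 95% intervals from limma. Open points did not pass, namely RPT2B, RPN2A, RPN3B and RPN9A, and the dashed line marks the median of all probe sets tested at -0.10.

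In the ring of ATPases that unfolds substrates, 6 of 7 measured genes rose, against 23.9% of all probe sets. Their median log2 change was 0.63. RPT5B (AT1G09100) had the largest change of any subunit. Its log2 values were 6.95, 6.95 and 6.77 in mock and 8.36, 8.27 and 8.48 in H2O2, a rise of 1.48 (SE 0.09, adjusted p = 2.98e-06). No H2O2 array came near the mock range. The other gene of that subunit, RPT5A (AT3G05530), read 9.75, 9.83 and 9.79 in mock and 10.26, 10.18 and 10.30 in H2O2, and it rose by 0.46 (SE 0.07, adjusted p = 0.000819).

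RPT3 (AT5G58290), the only gene listed for its subunit, rose by 1.45 (SE 0.07, adjusted p = 1.21e-06). RPT4A (AT5G43010) and RPT4B (AT1G45000) rose by 0.52 and 0.63. RPT2A (AT4G29040), whose product takes part in gating the core and is known for its role in meristem and organ size, read 9.04, 8.93 and 8.99 in mock and 10.34, 10.13 and 10.36 in H2O2. That is a rise of 1.29 (SE 0.09, adjusted p = 6.25e-06), with the groups far apart. Its paralogue RPT2B (AT2G20140) was the ATPase gene that did not pass. The mock arrays gave 8.21, 8.27 and 8.22 for RPT2B and the H2O2 arrays 8.33, 8.17 and 8.38. The groups overlapped, since H2O2 replicate 2 lay below all mock arrays, and the change was 0.06 (95% interval -0.12 to 0.24, adjusted p = 0.545). RPT2B passed when reference genes were used to centre the arrays (0.25, adjusted p = 0.046).

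RPN1 and RPN2 are the large non-ATPase subunits of the base, and RPN1 docks shuttle proteins and a deubiquitylase. Both RPN1 genes rose, by nearly the same amount. RPN1A (AT2G20580) went from 8.83, 8.87 and 8.86 to 9.49, 9.29 and 9.37, a change of 0.53 (SE 0.08, adjusted p = 0.000511). RPN1B (AT4G28470) went from 7.88, 7.89 and 7.86 to 8.31, 8.36 and 8.49, a change of 0.51 (SE 0.08, adjusted p = 0.000573). The genes of RPN2 parted. RPN2B (AT1G04810) gave 8.01, 7.92 and 7.87 in mock and 8.92, 8.81 and 9.01 in H2O2, a rise of 0.98 (SE 0.08, adjusted p = 2.3e-05).

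RPN2A (AT2G32730) gave 8.26, 8.41 and 8.09 in mock and 8.43, 8.44 and 8.46 in H2O2. All H2O2 values lay above the mock values, but mock replicate 2 came close to them and the mock arrays were spread widely. The change of 0.19 (95% interval -0.02 to 0.41) did not pass (adjusted p = 0.105). It passed without mock replicate 2 (0.27, adjusted p = 0.040) and with reference gene centring (0.39, adjusted p = 0.0074). RPN10 (AT4G38630), a ubiquitin receptor that sits between base and lid, read 9.67, 9.52 and 9.61 in mock and 10.50, 10.40 and 10.49 in H2O2. It rose by 0.86 (SE 0.08, adjusted p = 3.13e-05), with a wide gap between the groups.

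In the lid 9 of 11 measured genes rose, against 23.9% of all probe sets. The median log2 change of the lid was 0.78, with a range from -0.22 to 1.37. RPN8B (AT3G11270), one of the genes for the partner of the deubiquitylase subunit, led the lid. Its values were 7.42, 7.37 and 7.32 in mock and 8.70, 8.67 and 8.83 in H2O2, a rise of 1.37 (SE 0.08, adjusted p = 2.04e-06). RPN8A (AT5G05780) read 9.34, 9.35 and 9.27 in mock and 9.74, 9.75 and 9.83 in H2O2, a rise of 0.45 (SE 0.07, adjusted p = 0.000753). In neither gene did the groups overlap.

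RPN11 (AT5G23540), the metalloprotease that cuts off the ubiquitin chain, rose by 0.99 (SE 0.08, adjusted p = 1.34e-05). RPN6 (AT1G29150), a scaffold subunit that links lid and core, rose by 1.22 (SE 0.09, adjusted p = 1.14e-05). RPN7 (AT4G24820) and RPN12A (AT1G64520) rose by 0.78 and 0.76, and the paired genes RPN5A (AT5G09900) and RPN5B (AT5G64760) by 0.63 and 0.88. These 6 genes are structural parts of the lid apart from RPN11, and all had separate groups.

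RPN3A (AT1G20200) rose from 8.38, 8.52 and 8.35 in mock to 9.41, 9.31 and 9.53 in H2O2, a change of 1.00 (SE 0.09, adjusted p = 2.84e-05). RPN3B (AT1G75990) had the lowest change of all subunits. Its values were 7.48, 7.55 and 7.32 in mock and 7.21, 7.35 and 7.13 in H2O2, so that H2O2 replicate 2 lay just above mock replicate 3. The change of -0.22 (SE 0.09, adjusted p = 0.0728) did not pass, but with a block for the replicate number it was called lower (adjusted p = 0.035). RPN3B was also called lower without mock replicate 3 (-0.28, adjusted p = 0.042), without H2O2 replicate 2 (-0.28, adjusted p = 0.044) and with each array centred on its median (-0.24, adjusted p = 0.035). With reference gene centring it was not called.

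RPN9A (AT5G45620), a structural lid gene whose paralogue RPN9B was not analysed, showed the smallest difference. It read 8.64, 8.80 and 8.69 in mock and 8.64, 8.79 and 8.67 in H2O2. The groups coincided array by array, with a change of -0.01 (95% interval -0.20 to 0.18, adjusted p = 0.928). RPN9 was the 1 subunit of 27 with any measured gene for which no gene was called higher.

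Every measured gene of the core rose, where 23.9% of all probe sets were called higher. All 10 alpha ring genes were called higher, with a median log2 change of 0.65 and a range from 0.37 to 0.99, and so were all 9 beta ring genes, with a median of 0.59 and a range from 0.30 to 0.86. No core gene reached 2-fold, a rise called for 7.63% of all probe sets. None had overlapping groups, and 26.6% of all probe sets had all H2O2 arrays above all mock arrays.

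The alpha ring forms the gate of the barrel. PAE1 (AT1G53850) rose most, from 9.24, 9.17 and 9.19 in mock to 10.21, 10.20 and 10.16 in H2O2, a change of 0.99 (SE 0.07, adjusted p = 7.55e-06). Its paralogue PAE2 (AT3G14290) rose least of the ring, from 9.20, 9.09 and 9.06 to 9.50, 9.48 and 9.49, a change of 0.37 (SE 0.07, adjusted p = 0.0027). The largest and the smallest change of the alpha ring thus belonged to the genes of 1 subunit. PAF1 (AT5G42790) and PAF2 (AT1G47250) rose by 0.82 and 0.73, PAB1 (AT1G16470) and PAB2 (AT1G79210) by 0.79 and 0.42, and PAD1 (AT3G51260) and PAD2 (AT5G66140) by 0.50 and 0.47. PAC1 (AT3G22110) and PAG1 (AT2G27020), each the only gene listed for its subunit, rose by 0.72 and 0.59.

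Among beta ring genes, those of the peptidase sites measured were PBA1 and the PBB pair. PBB2 (AT5G40580), which encodes the trypsin-like site, rose most, from 8.49, 8.32 and 8.20 in mock to 9.21, 9.22 and 9.15 in H2O2, a change of 0.86 (SE 0.09, adjusted p = 8.12e-05). PBB1 (AT3G27430), the other gene of that site, rose by 0.32 (SE 0.07, adjusted p = 0.00382). PBA1 (AT4G31300), which encodes the caspase-like site, rose by 0.60 (SE 0.07, adjusted p = 0.000189). Both genes of the chymotrypsin-like site, PBE1 and PBE2, were not analysed.

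The remaining beta subunits have no peptidase activity. PBF1 (AT3G60820) had the smallest rise of the core, from 10.10, 10.03 and 10.02 to 10.39, 10.30 and 10.35, which is a change of 0.30 (SE 0.07, adjusted p = 0.00678) with separate groups. PBG1 (AT1G56450) rose by 0.65, PBC1 (AT1G21720) and PBC2 (AT1G77440) by 0.53 and 0.59, and PBD1 (AT3G22630) and PBD2 (AT4G14800) by 0.49 and 0.59.

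Set side by side, the 19S and 20S genes differed more in the spread of their changes than in the middle. The median log2 change was 0.76 for 23 measured 19S genes and 0.59 for 19 measured 20S genes. The standard deviation of the changes across genes was 0.47 in the 19S particle and 0.19 in the core. In the base as a whole 9 of 11 genes rose, with a median of 0.53. In the lid 9 of 11 rose, with a median of 0.78, where 23.9% of all probe sets were called higher. The per-array means did not overlap between groups in any of these parts, with a difference of 0.84 for the base ATPases, 0.55 for the other base subunits, 0.71 for the lid, 0.64 for the alpha ring and 0.55 for the beta ring. By these means the lid lay between the base ATPases and the other base subunits, although its median was above that of the whole base. The order of base and lid thus depends on the measure. These are descriptions of sets of genes, and the differences between the parts were not tested.

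**Figure D2:**
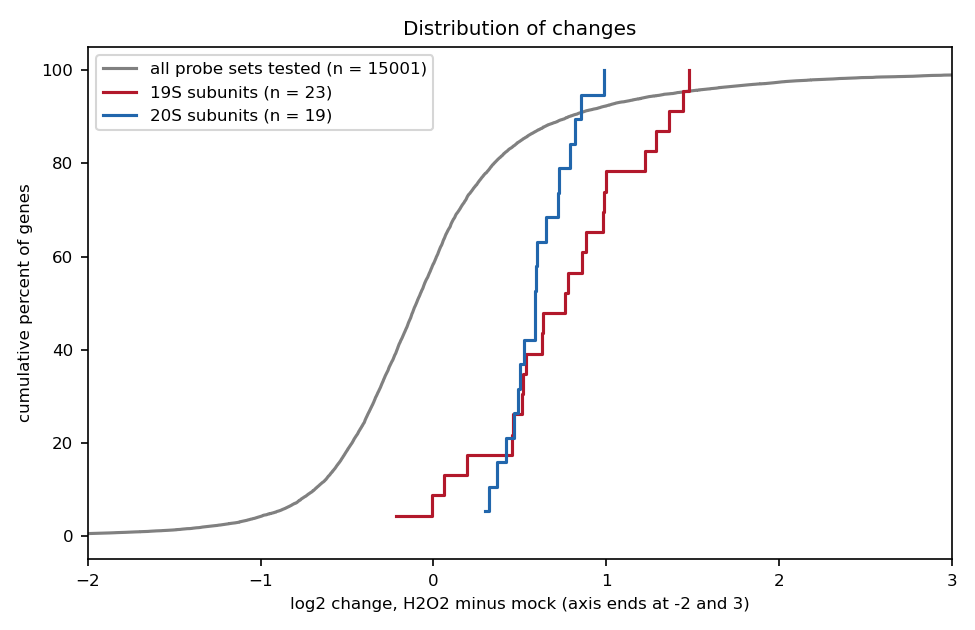
Cumulative percent of genes (vertical axis) by log2 change (H2O2 minus mock, horizontal axis) for all 15001 probe sets tested, 23 measured 19S genes and 19 measured 20S genes. The 20S curve climbs steeply between 0.30 and 0.99, while the 19S curve runs from -0.22 to 1.48.

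The arrays of a group were close but not alike for these genes. Within a group the SD of a subunit gene ran from 0.01 to 0.20 on the log2 scale. Mock replicate 3 was the lowest mock array for 29 of the 42 genes, and for 39.9% of all probe sets tested. H2O2 replicate 2 was the lowest H2O2 array for 24 of the 42, and for 29.9% of all probe sets. The 38 genes called higher were each called higher when any 1 array was left out.

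Many subunits have paralogous genes, so the next comparison asked whether the genes of a pair changed by the same amount. Of 20 pairs on the list both genes were measured for 15. The test used the log2 difference between the genes on each array, which is not affected by any shift common to an array, with an exact permutation test (two-sided). With 3 arrays against 3 this test cannot go below 0.1, so no pair could pass the threshold, and the result is given as sizes. In 12 of the 15 pairs both genes were called higher.

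The difference between paralogues did not overlap between mock and H2O2 arrays in 10 of the 15 pairs (66.7%). The share among other gene pairs was not computed, so the count is a description. Separate groups were common among single probe sets, with all H2O2 arrays above mock in 26.6% and below in 40.7%. Each of these 10 had the smallest p possible (exact p = 0.1, adjusted over the 15 pairs 0.15). Of the 8 pairs in the 19S particle 6 were separate, with a median absolute difference in change of 0.85, and of the 7 pairs in the core 4, with a median of 0.10.

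The RPT2 pair moved apart most. The log2 difference RPT2A minus RPT2B was 0.84, 0.67 and 0.77 in mock and 2.01, 1.96 and 1.99 in H2O2, a shift of 1.23 toward RPT2A. For RPN3A minus RPN3B the arrays gave 0.90, 0.98 and 1.04 in mock and 2.19, 1.96 and 2.40 in H2O2, a shift of 1.21 toward RPN3A. In both of these pairs the A gene rose and the B gene was not called.

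In the next 3 pairs the shift was toward the B gene. RPT5A minus RPT5B went from 2.80, 2.88 and 3.02 to 1.90, 1.91 and 1.83, a change of -1.02. RPN8A minus RPN8B went from 1.92, 1.98 and 1.96 to 1.04, 1.08 and 1.00, a change of -0.91. RPN2A minus RPN2B went from 0.25, 0.49 and 0.21 to -0.50, -0.36 and -0.55, a change of -0.79. In the RPT5 and RPN8 pairs both genes rose and the B gene rose more, whereas of the RPN2 pair only RPN2B was called.

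**Figure D3:**
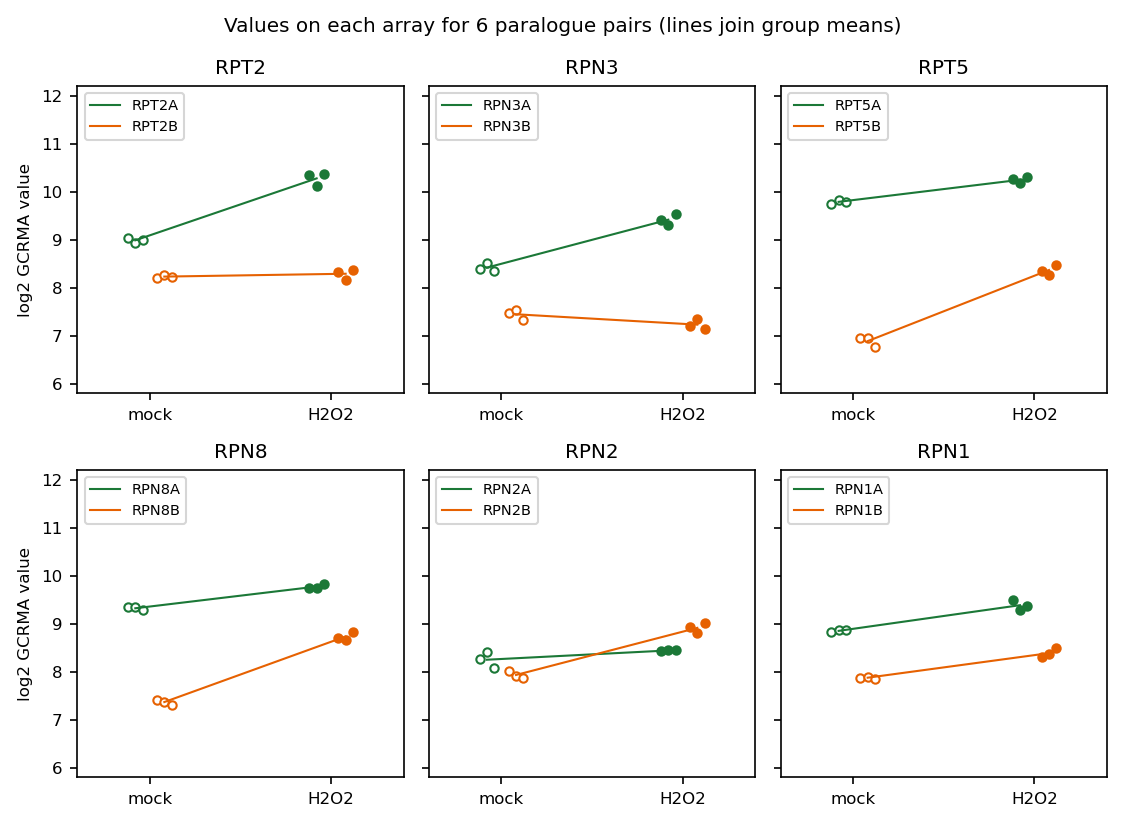
Log2 GCRMA value (vertical axis) on each mock and H2O2 array for both genes of the 5 pairs with the largest difference in change and of RPN1, the pair with the smallest. Points are arrays and lines join group means. RPT2A, RPN3A, RPT5B, RPN8B and RPN2B climb more steeply than their paralogues, and the RPN1 lines run parallel.

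Among pairs of the core, PAE1 shifted against PAE2 by 0.62, PBB2 against PBB1 by 0.54 and PAB1 against PAB2 by 0.37. The RPN5 pair shifted by 0.25 toward RPN5B and the PAF pair by 0.09 toward PAF1. All of these were separate between groups, that of RPN5 by the narrowest margin.

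The other 5 pairs had overlapping differences. Their absolute shifts were 0.11 for RPT4 (exact p = 0.4), 0.10 for PBD (exact p = 0.2), 0.07 for PBC (exact p = 0.4), 0.04 for PAD (exact p = 0.7) and 0.02 for RPN1 (exact p = 1). For RPN1A minus RPN1B the arrays gave 0.95, 0.97 and 1.00 in mock and 1.18, 0.93 and 0.89 in H2O2, so the H2O2 arrays lay on both sides of the mock values. A p that misses the threshold does not show that such pairs changed alike. The probe definition is not given in the sources used here, so whether probe sets of paralogues respond to both transcripts was not tested. No subunit gene had values identical to those of another locus.

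**Figure D4:**
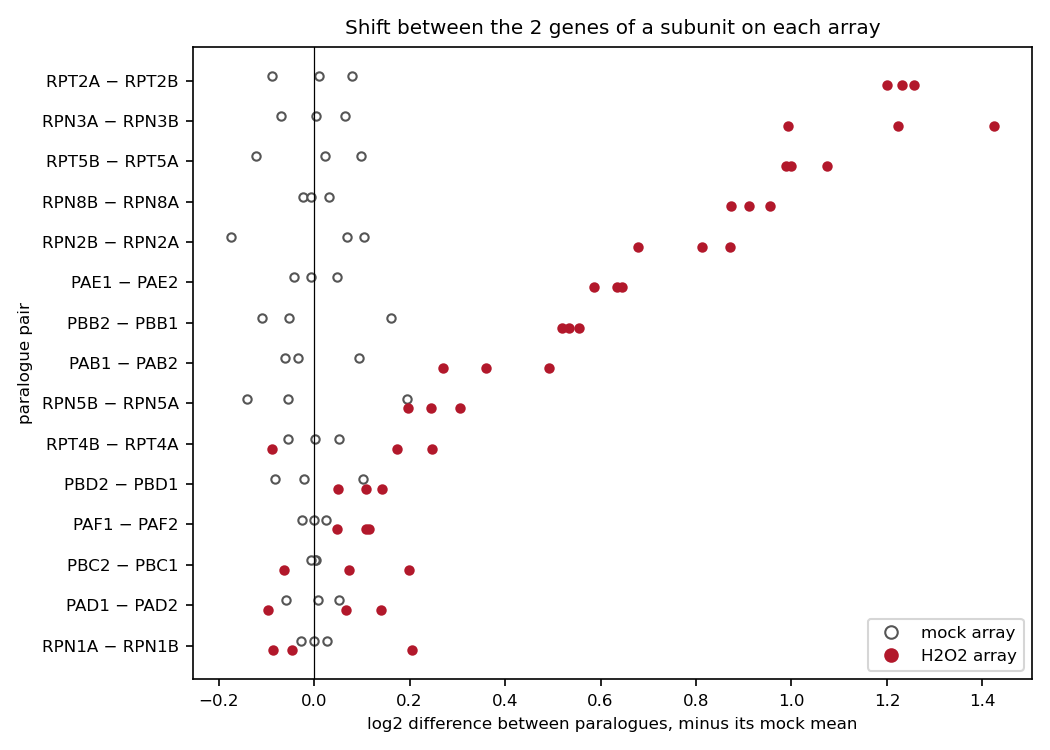
Log2 difference between the 2 genes of each of 15 pairs on every array, minus the mean difference in mock (horizontal axis), with the gene that gained named first. Open points are mock arrays and filled points H2O2 arrays. The points separate in 10 pairs, from RPT2 at 1.23 down to PAF at 0.09.

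Genes listed as regulators or partners of the proteasome were compared next, 19 in all, of which 18 were measured. Of these, 12 were called higher, 1 was called lower and 5 were not called, where 23.9% of all probe sets were higher and 36.5% lower. Their median log2 change was 0.44. NAC053 (AT3G10500) had the largest change, from 7.43, 7.15 and 7.25 in mock to 9.48, 9.22 and 9.38 in H2O2, a rise of 2.08 (SE 0.10, adjusted p = 9.32e-07). NAC2 (AT5G04410) rose from 8.50, 8.44 and 8.45 to 9.80, 9.74 and 9.95, by 1.37 (SE 0.08, adjusted p = 2.48e-06). Both factors were far above mock on every H2O2 array. The third largest change was that of AT2G03430, a locus the reference table leaves without a symbol, which rose by 1.31 (SE 0.10) from 7.76, 7.66 and 7.63 to 8.92, 8.88 and 9.17.

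The others of this list that are named here were chosen after their values were seen. PA200 (AT3G13330), which encodes an alternative cap of the core, rose by 1.21 (SE 0.11, adjusted p = 3.04e-05). UBP6 (AT1G51710) and UBP7 (AT3G21280), deubiquitylases known to bind the proteasome, rose by 0.57 and 0.26, and the call of UBP7 ended without mock replicate 1 (adjusted p = 0.051) or H2O2 replicate 1 (adjusted p = 0.057). The ubiquitin receptor RPN13 (AT2G26590) changed by 0.15 (adjusted p = 0.0987) and passed with reference gene centring (0.34, adjusted p = 0.0054) and without moderation (adjusted p = 0.027). The small lid subunit genes DSS1(V) (AT5G45010) and DSS1(I) (AT1G64750) differed, the former rising by 0.36 and the latter at -0.15 (adjusted p = 0.352). DSS1(I) was at 0.04 with reference gene centring, and it was called lower without H2O2 replicate 2 (-0.29, adjusted p = 0.0499). The gene called lower was AT1G48170, at -0.26 (adjusted p = 0.038), a call that ended with the replicate block (adjusted p = 0.054) and without mock replicate 1 or 3 or H2O2 replicate 1 or 3 (adjusted p = 0.056 to 0.13).

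Genes that make ubiquitin available or bring substrates to the proteasome went both ways. Of 15 measured from a list of 17, 9 were higher, 2 lower and 4 not called, with a median change of 0.31. The 9 higher compare with 23.9% of all probe sets, the 2 lower with 36.5% and the 11 called with 60.4% in either direction. All 5 polyubiquitin genes rose, led by UBQ14 (AT4G02890), up by 1.33 from 10.80, 10.61 and 10.45 to 11.93, 11.91 and 12.03 (SE 0.10), and UBQ11 (AT4G05050), up by 1.00 from 10.51, 10.32 and 10.18 to 11.32, 11.33 and 11.35 (SE 0.09). Polyubiquitin genes are near-identical repeats, so their probe sets may not tell them apart. CDC48A (AT3G09840), an ATPase that extracts ubiquitylated proteins, rose by 1.12 from 10.63, 10.56 and 10.65 to 11.71, 11.65 and 11.85 (SE 0.08). The genes called lower were RAD23B and RAD23C, which encode shuttle receptors that carry ubiquitylated proteins to the proteasome. RAD23C (AT3G02540) fell by 0.55 and RAD23B (AT1G79650) by 0.27, while RAD23D (AT5G38470) changed by 0.14 and did not pass. RAD23D was called higher with reference gene centring (0.33, adjusted p = 0.0080) and without moderation (adjusted p = 0.038). The call of RAD23B ended without mock replicate 2 (adjusted p = 0.072) and with reference gene centring (-0.08).

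The COP9 signalosome, which is related to the lid in subunit make-up and acts on cullin ubiquitin ligases, served as a comparison. Of its 10 genes, all measured, 5 rose and 5 were not called, with a median change of 0.20. Of all probe sets 23.9% were called higher and 60.4% in either direction. CSN7 (AT1G02090) rose from 6.78, 6.79 and 6.84 to 8.19, 8.17 and 8.14, by 1.36 (SE 0.07, adjusted p = 1.02e-06). CSN1 (AT3G61140) followed with a rise of 0.55, from 7.69, 7.76 and 7.86 to 8.26, 8.29 and 8.41. CSN4 (AT5G42970) rose by 0.49, from 7.52, 7.67 and 7.62 to 8.08, 8.05 and 8.17. In all 3 genes the groups were separate. Set beside the lid, with 9 of 11 genes higher and a median of 0.78, the counts are lower, and the difference was not tested.

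**Figure D5:**
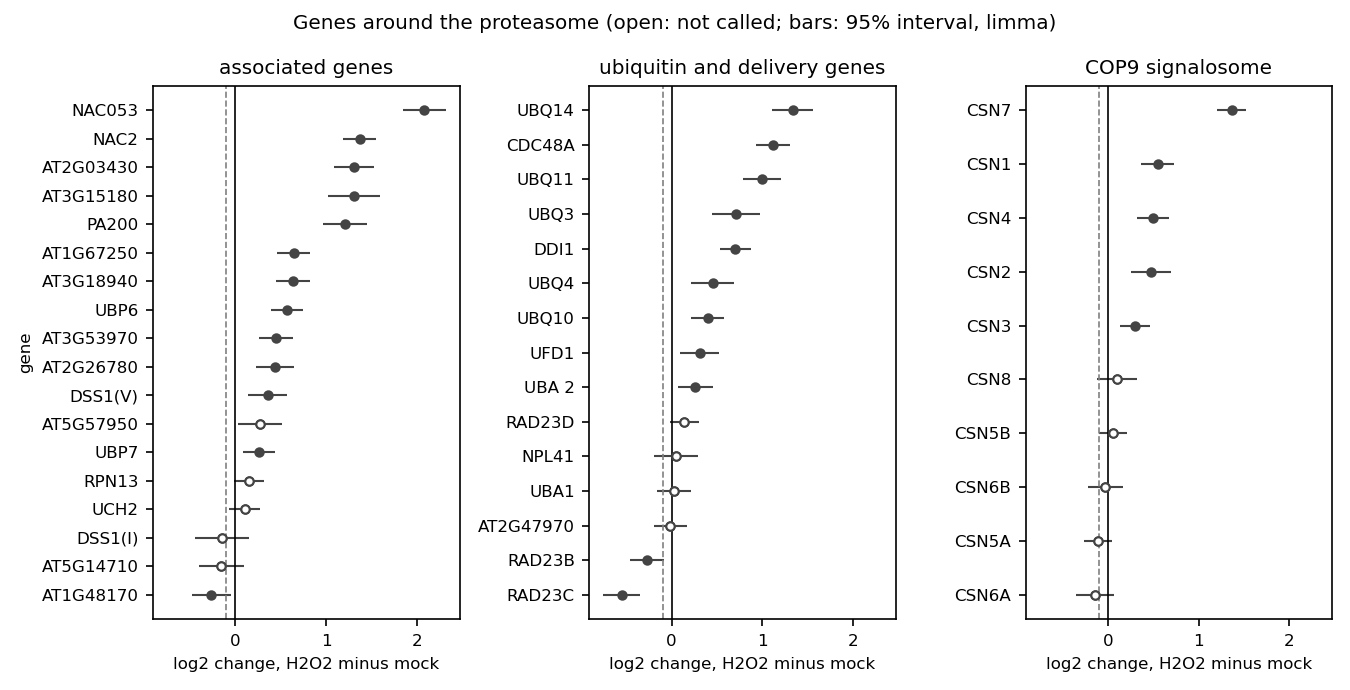
Log2 change (H2O2 minus mock, horizontal axis) with 95% intervals from limma for 18 associated genes, 15 ubiquitin and delivery genes and 10 COP9 signalosome genes, with loci given where the reference table has no symbol. Open points were not called and the dashed line is the median of all probe sets tested. NAC053, UBQ14 and CSN7 lead the 3 panels, at 2.08, 1.33 and 1.36.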

How the data were processed

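The values deposited by the authors are log2 intensities from GCRMA, as the submitters' processing notes name it, and their range shows the log2 scale. Which chip, probe definition and GCRMA version were used is not given in the sources used here. GCRMA compresses low signals, and normalization between arrays removes overall differences in RNA content. The labels gave the groups (3 arrays each), and no 2 arrays were identical.

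Of 21430 probe sets, those with a mean over all arrays under the 30th percentile (3.79) were left out (6429), which kept 15001. These were fitted together with limma 3.58.1 in R 4.3.3 (lmFit, eBayes, H2O2 minus mock, residual degrees of freedom 4, prior 4.30), with Benjamini-Hochberg adjustment over all of them and a threshold of 0.05. Fold changes are powers of 2 of that difference. Paralogue pairs were tested with scipy 1.17.1 and figures drawn with matplotlib 3.10.9. The fit and the exact test were tested on simulated data.

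Members and lists were chosen with earlier results of these data known. Values on every array are given for the largest and smallest change in each part of the complex, RPN10, the 5 pairs that differed most and the 1 that differed least, and each member not called; of the other lists, for NAC053, NAC2 and the 3 largest absolute changes of each. Beside the 17 delivery genes listed, 1 further gene is not reported here. Subunit names follow the list. The RefSeq table of assembly TAIR10.1 held all 42 loci, of which 8 had no symbol, and 9 of the associated loci had none either.

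Replicate numbers are shared by both groups. After each group's mean was removed, same-numbered arrays correlated at 0.19, 0.21 and 0.21 over probe sets. The numbers were therefore taken to pair the arrays, and a replicate block was fitted as an alternative. The main fit and the exact test did not use this pairing. The other settings tried were the filter dropped or set at the 50th percentile, values under 3.74 raised to it, quantile normalization, median centring, centring on 7 reference genes, a trended robust prior, no moderation, array weights and each array left out.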

Additional observations from a re-analysis of the deposited data

How the results depend on the processing

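All 38 subunit genes called higher were also called higher in each of the 16 alternatives, with adjusted p of at most 0.027, and the count ran from 38 to 40. No subunit was called lower, but RPN3B made it 1 (and 1 in the lid) with median centring, with the replicate block, and when leaving out an array, where the count ran from 0 to 1. The median change of 0.61 ran from 0.59 to 0.81 over the settings, with 0.68 under quantile normalization and 0.81 under reference gene centring. Centring on the 7 reference genes, of which 3 were themselves called lower, shifted the overall median by 0.19 and the share of higher calls among all calls from 39.5% to 63.0%, and the subunits stayed 0.71 above the median of all. RPN9A, never called, changed sign under quantile normalization (0.00281) and reference gene centring (0.183), and ran from -0.0546 to 0.0376 when leaving out an array. DSS1(I) changed sign under reference gene centring (0.0433). The 1 associated gene called lower became 0 under quantile normalization, reference gene centring, no moderation and the replicate block, and 0 to 2 when leaving out an array. The 2 delivery genes called lower became 1 under reference gene centring, and 1 to 2 when leaving out an array. Without moderation 1 signalosome gene, CSN5A, was called lower. Pairs with separate differences numbered 9 to 13 over the alternatives. These counts are not 1 measure, since fewer arrays separate more easily and centring leaves a difference within an array unchanged. The count of 10 with the replicate block is of pairs whose same-numbered shifts all had the same sign, a looser rule. Among the subunits and the associated, delivery and signalosome genes named in the Results, the block changed only the calls of RPN3B and AT1G48170. The organ markers were not part of this check. The cause of these shifts was not tested. GCRMA values give no depth, and 3 arrays a group limit the precision.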
